A study of Mus musculus with 4 samples.

Results

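The segment described here is chr15:73474421-86723329 (mm10), a stretch of mouse chromosome 15 in liver DNA of Pnpla7 knockout and wild-type mice. It was chosen from the methylation levels themselves. Its first sub-interval, 73.4-74.9 Mb, holds CpGs that were almost fully methylated in both knockout libraries and almost unmethylated in both wild-type libraries. Levels of that kind set the choice. The segment reaches well beyond these CpGs, so levels in its last sub-interval are not taken as free of that choice. The KO against WT levels given below are therefore a description, and no test is drawn from them. Members were the CpGs with at least 10 reads in each of the 4 libraries, both strands summed, and the 1-kb tiles that hold at least 3 of them. The segment had 23601 such CpGs, 1.47% of the 1600691 on the nuclear chromosomes, and 2259 of 164026 tiles. By sub-interval there were 1388 CpGs and 154 tiles in 73.4-74.9 Mb, 6715 CpGs and 599 tiles in 74.9-78.2 Mb, and 15498 CpGs and 1506 tiles in 78.2-86.8 Mb.

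The knockout mice were Pnpla7-/- (KO, 2 libraries) and the controls Pnpla7+/+ (WT, 2 libraries), all C57BL6/N at 6 weeks of age, with liver as the tissue. The labels give neither the design of the knockout allele nor the animal behind each library, so the spread between libraries may be technical. Pnpla7 encodes a lysophospholipase of the patatin-like family and lies on another chromosome, and methylation does not check its deletion. Libraries held 59953688 and 60535892 reads over CpGs in KO 1 and KO 2, against 50413170 and 59437109 in WT 1 and WT 2. In the segment the median analysed CpG had 27 reads in each KO library, against 22 and 27 reads in WT 1 and WT 2. Gene ends of 10 hepatocyte genes had median levels of 28.2% and 19.9% in the KO libraries and 21.2% and 19.9% in the WT libraries. Those of 7 leukocyte genes had median levels of 70.8% and 78.1% in KO and 83.1% and 70% in WT. The lists named 17 and 12 genes, and the others were not measured. Single genes of the 2 lists overlapped. Hepatocyte genes ran from 0.218% to 76% in KO 1 and from 0.588% to 68.8% in WT 1. Leukocyte genes ran from 0.903% to 94.2% in KO 1 and from 0.272% to 93.7% in WT 1.

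CpG methylation is the addition of a methyl group to a cytosine that is followed by a guanine. In mammalian tissue most CpGs are methylated, whereas the dense CpGs at active gene starts usually are not. In reduced representation bisulfite sequencing, restriction enzymes cut the DNA at CpG-containing sites, here MspI at ccgg and TaqI at tcga, and bisulfite turns unmethylated cytosines into uracil, which is read as T. A level is thus the share of reads that kept C at a CpG of the reference genome. A CpG is read only when the fragment that holds it is cut out. The levels do not separate an unmethylated cytosine from a base that already reads as T in the animal's own DNA, and whether such bases contribute here was not tested.

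Of 297 promoter windows of 235 genes in the segment, 3 hold a CpG that sets the genotypes apart, either by its level or because it was read in the KO libraries and listed in neither WT library. Dennd3, Slc45a4 and Ptp4a3 of the first sub-interval have no window. For their CpGs that set the genotypes apart by level, the nearest window was that of Gm52173, at least 145250 bp away. All 3 windows found lie in the last sub-interval. These 3 windows are shown to place such CpGs in their sequence. They run from 250 bases before to 50 bases after the gene start, 5' to 3' on the gene's strand, from RefSeq on GRCm38.p6 (mm10), and capitals mark those CpGs. The window of the long non-coding RNA gene Gm52189 is chr15:79224440-79224739 on the minus strand, that of Gm16059 is chr15:79426232-79426531 on the plus strand, and that of Josd1, a deubiquitinase gene, is chr15:79687823-79688122 on the minus strand.
Gm52189: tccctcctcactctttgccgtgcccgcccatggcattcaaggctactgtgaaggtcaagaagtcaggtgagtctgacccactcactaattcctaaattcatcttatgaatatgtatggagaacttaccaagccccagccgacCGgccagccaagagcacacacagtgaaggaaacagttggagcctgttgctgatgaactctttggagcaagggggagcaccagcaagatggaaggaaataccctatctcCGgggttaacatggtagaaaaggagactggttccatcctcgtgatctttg
Gm16059: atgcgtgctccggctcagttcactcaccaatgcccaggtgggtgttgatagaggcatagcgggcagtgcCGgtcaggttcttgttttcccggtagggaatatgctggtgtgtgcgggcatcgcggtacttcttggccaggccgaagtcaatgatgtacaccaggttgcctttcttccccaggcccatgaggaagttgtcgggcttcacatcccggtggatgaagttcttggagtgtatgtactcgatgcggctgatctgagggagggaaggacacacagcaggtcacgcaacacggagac
Josd1: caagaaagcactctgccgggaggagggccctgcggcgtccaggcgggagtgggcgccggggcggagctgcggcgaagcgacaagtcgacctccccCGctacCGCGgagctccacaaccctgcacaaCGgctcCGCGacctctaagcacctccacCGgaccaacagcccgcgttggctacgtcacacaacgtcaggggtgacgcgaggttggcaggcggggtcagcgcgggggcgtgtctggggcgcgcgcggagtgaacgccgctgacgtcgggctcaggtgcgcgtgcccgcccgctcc
Both marked CpGs of Gm52189 lie in a ccgg site and were read 32 to 44 times in KO 1 and 11 to 21 times in KO 2, against no read in either WT library. Their pooled levels were 43.4% and 43.8% in KO 1 and KO 2. The Gm16059 window holds 15 CpGs, 10 of them analysed, and its marked CpG at chr15:79426301 is part of a ccgg site. That CpG stood at 95.2% and 18.2% in KO 1 and KO 2, against 1.67% and 0% in WT 1 and WT 2. The other analysed CpGs of this window were at 95.1% and 95.2% in KO and 92.3% and 93.6% in WT, so the marked CpG differed from neighbours within the same sequence. The Josd1 window is dense, with 40 CpGs. Its 7 marked CpGs, 1 of them in a ccgg site, were read 35 to 49 times in KO 1 and 12 to 27 times in KO 2, against no read in WT. They were unmethylated where read, at 1.22% and 0.578% in KO 1 and KO 2, and the window's analysed CpGs were at 0.277% and 0.385% in KO and 0.3% and 0% in WT. Sites are common: 52.8% of 32851 mouse promoter windows of this length hold the letters ccgg and 22% hold tcga, which read the same on both strands and cannot overlap each other.

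All-or-none CpGs are those at or below 10% in both libraries of a genotype and at or above 70% in both of the other. The segment held 15, all high in KO and all within chr15:73474421-74803531. None had the opposite direction, and no CpG of any other chromosome or of the rest of chromosome 15 met the limits (15 of 1600691, 0.000937%). Summed over the 15, KO 1 had 368 methylated of 410 reads, 89.8% (95% exact Clopper-Pearson interval 86.4% to 92.5%), and KO 2 had 352 of 407, 86.5% (82.8% to 89.7%). WT 1 had 0 of 351 reads, which allows a share of up to 0.855%, and WT 2 had 4 of 441, 0.907% (0.248% to 2.31%). Reads were amplified without molecular identifiers in the files, so these intervals and limits cover counting error only. In WT the C was thus nearly absent at these positions, while the KO libraries were close to each other. The CpGs were picked by these same levels, at most 10% in WT and at least 70% in KO. These values and intervals therefore only describe the chosen set.

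Genes carry 9 of these CpGs. Dennd3, which encodes an activator of the small GTPase Rab12, has CpGs at 73518910 and 73543765. The first was at 95.2% and 91.3% in KO, against 0% in both WT libraries, and the second at 94.1% and 78.3% in KO, against 0% in both. A further CpG at 73474421, 38139 bp from Dennd3, was at 95.7% and 100% in KO, against 0% and 3.12% in WT. In Slc45a4, a solute carrier gene, the CpG at 73586292 was the most deeply read, with 46 and 50 reads in KO and 48 and 51 in WT. It stood at 91.3% and 88% in KO and 0% in both WT libraries, a mean of 89.7% ± 2.34 (SD, n = 2) against 0 of 48 and 0 of 51 reads, which allow up to 6.25% and 5.88%. Ptp4a3, the gene of the phosphatase PRL-3, had 3, the highest number in a gene. Its CpG at 73739647 was at 93.9% and 96.4% in KO, against 0% in both WT libraries. The one at 73744249 was at 80% and 78.3% in KO, against 0% in both, and the one at 73758464 at 88.9% and 94.6% in KO, against 0% and 2.7% in WT. A CpG 8438 bp outside the gene, at 73767204, was at 87.9% and 88.9% in KO, against 0% in both WT libraries. The remaining genic members lie in Mroh5, at 94.4% and 92.3% in KO, and in the non-coding genes Gm32405, at 85.7% and 78.3% in KO, and Gm32168, at 94.4% and 91.7% in KO. WT levels of those 3 were 0%, apart from 6.67% in WT 2 at Gm32405. By the definition of the class, the groups were far apart at every one of the 15.

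Of the members, the nearest to the limits was at 74112704, far from any gene, with 80% and 70.6% in KO and 0% and 5.26% in WT. Just outside them was a CpG of the last sub-interval, at 83552649 in Mcat, a mitochondrial malonyl transferase gene, with 100% and 68.4% in KO and 0% in both WT libraries. There KO 2 had 6 of 12 forward and 7 of 7 reverse reads methylated, and WT was read on the forward strand only. Among CpGs of the first sub-interval with a mean WT level at or below 25%, 2 passed the KO limit and missed the WT limit. The CpG at 73475814 had 100% in both KO libraries and 7.14% and 30.8% in WT. That at 74638802 had 73.9% and 79.3% in KO and 23.8% and 23.3% in WT. Looser limits of 20% and 60% left the number in this sub-interval at 15. Its CpG at 73939611, at 0% in both WT libraries, had 57.1% and 41.7% in KO.

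**Figure D1:**
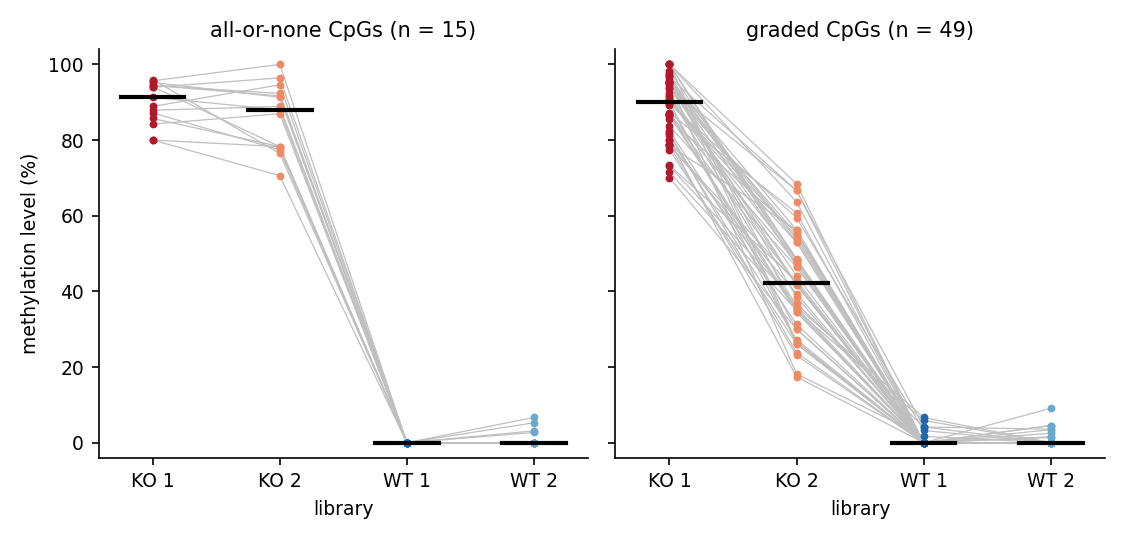
Methylation level (%) of the 15 all-or-none CpGs (left) and the 49 graded CpGs (right) in KO 1, KO 2, WT 1 and WT 2; grey lines join the values of a CpG and black bars are medians. All-or-none CpGs were high in both KO libraries; graded CpGs were high in KO 1, intermediate in KO 2 with a median of 42.2%, and at or below 9.09% in WT.

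The last sub-interval had no all-or-none CpG among its 15498, which allows up to 0.0194%. That number depended on the settings: 8 of 34 all-or-none CpGs lay there at a minimum of 5 reads, 7 of 22 at limits of 20% and 60%, where 1 of the 22 was high in WT, and 18 of 33 with reads pooled by genotype. It held a related set in which the KO libraries differed from each other. In these graded CpGs, a class defined after the values were seen, both WT libraries were at or below 10%, KO 1 was at or above 70% and KO 2 lay between. There were 49 of them, from 78517791 to 86154362, of 54 in the series (0.00337% of its analysed CpGs). The other 5 continue past the segment's end, from 86810775 to 87696389. The mirror image, with KO 2 high and KO 1 between, was found at 0 CpGs of the segment. In pooled reads KO 1 had 1207 of 1350 methylated, 89.4% (87.6% to 91%), and KO 2 had 544 of 1285, 42.3% (39.6% to 45.1%). WT 1 had 6 of 1175, 0.511% (0.188% to 1.11%), and WT 2 had 8 of 1358, 0.589% (0.255% to 1.16%). KO 1 ranged from 70% to 100% with a median of 90%, and KO 2 from 17.4% to 68.4% with a median of 42.2%. WT 1 was at 0% at 43 of the 49 and WT 2 at 41. At a graded CpG the KO 2 level was 0.49 of the KO 1 level in the median (quartiles 0.393 and 0.584), whereas at the all-or-none CpGs the ratio was 0.971 (0.901 and 1.02). The definitions put KO 2 below KO 1 at every graded CpG and both at or above 70% at every all-or-none CpG. The direction of this contrast is therefore set by the classes. Read depth did not follow the levels: the ratio of KO 2 to KO 1 reads, scaled by library, was 0.991 at the graded and 1.08 at the all-or-none CpGs.

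Genes hold 37 of the graded CpGs, in 27 gene entries. Several lie around Cbx7, a Polycomb chromobox gene, and Apobec3, a cytidine deaminase gene that restricts retroviruses, whose gene bodies overlap. The CpG at 79917820 in both genes was at 85.5% and 55.6% in KO, against 0% in both WT libraries, and the one at 79917953 at 89.3% and 30% in KO, against 0% in both. In Cbx7 alone, 79918762 was at 87% and 35.1% in KO and 0% in WT. These KO 2 levels rest on 36, 30 and 57 reads. At 79917820 KO 2 had 14 of 30 forward and 6 of 6 reverse reads methylated, and WT had no reverse read there. Whether neighbouring CpGs of a gene differed in KO 2 was not tested. Efcab6 has 3 graded CpGs close together, at 84042300, 84042334 and 84042357. They were at 77.4%, 86.5% and 97.2% in KO 1 and at 26.1%, 34.5% and 34.5% in KO 2, with 0% in both WT libraries. Celsr1, a cadherin gene of planar cell polarity, and Arhgap8 have 4 each, the most in a gene; KO 1 was at 81.2% to 95.8% and KO 2 at 26.7% to 56.2% in Celsr1. Arhgap8 ranged from 70% to 100% in KO 1 and from 26.7% to 48.3% in KO 2, and WT reached 4.55% at most in either gene. Gramd4 carries the deepest of the set. At 86089258, where the gene overlaps Gm15722, the level was 78.7% and 39.4% in KO, against 0% and 1.39% in WT, with 75 and 71 reads in KO and 64 and 72 in WT. At 86081997 it was 98.4% and 48.6% in KO, against 0% and 1.56% in WT.

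Among genes of lipid and signalling function, Cerk, which encodes ceramide kinase, had 91.7% and 41.7% in KO at 86154362 and 0% in WT. The growth factor gene Pdgfb was at 83.7% and 46.4% in KO at 80022342, the glycosyltransferase gene Mgat3 at 96.7% and 66.7% at 80212525, and the somatostatin receptor gene Sstr3 at 80% and 17.4% at 78543870, all with 0% in both WT libraries. KO 2 thus ranged from 17.4% to 66.7% at these few CpGs, each read 12 to 30 times in KO 2. The middle sub-interval had neither class among 6715 CpGs, which allows up to 0.0447% for each.

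**Figure D2:**
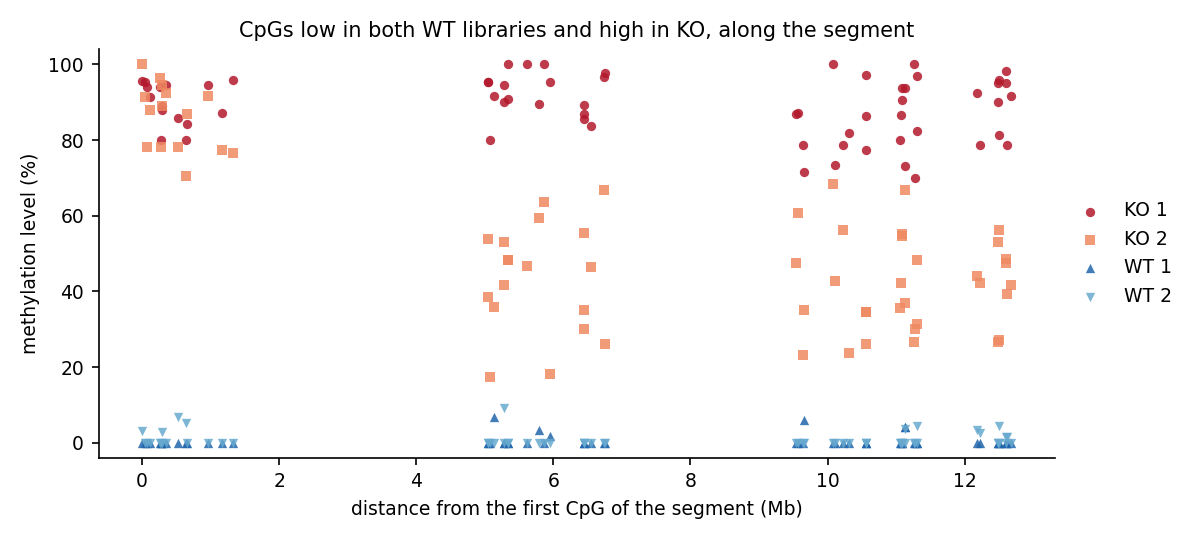
Level (%) of the all-or-none and graded CpGs in each library (KO 1, KO 2, WT 1, WT 2 by colour and marker) by distance from the first CpG of the segment (Mb). Both KO libraries are high in the group at the left end, the middle sub-interval is empty, and in the last KO 1 is high, KO 2 intermediate and WT near 0.

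The CpGs around these positions were mostly unlike them. With gaps of at most 200 bp, the 15 all-or-none CpGs form 15 runs and the 49 graded CpGs 41 runs, so some graded CpGs lie side by side, as in Efcab6 and Gramd4. The listed CpGs within 250 bp numbered 4 in the median around an all-or-none and 6 around a graded CpG. The 46 other analysed CpGs within 200 bp of them averaged 85.1% and 84.9% in KO, against 83.2% in both WT libraries, and the median of the differences was 1.75 points (quartiles -3.7 and 6). Of the 46, 6 differed by over 20 points and 1 by over 50. Around the graded CpGs, 150 neighbours averaged 87.6% and 87.1% in KO and 84.7% and 85.8% in WT, and their median difference was 0.932 points; 5 differed by over 20 points. In WT these CpGs were thus low positions within highly methylated sequence, and in KO 1 they were close to the level around them. Many of these CpGs were read on a single strand in every library, 8 of the 15 all-or-none and 27 of the 49 graded. Over the 6 all-or-none CpGs with at least 3 reads on each strand in every library, forward reads gave 90.7% and 89% in KO against 0% and 0.909% in WT, and reverse reads gave 88% and 86.4% in KO against 0% in both. Over 11 such graded CpGs, forward reads gave 89.3% and 42.7% in KO against 0% and 0.709% in WT, and reverse reads 90.2% and 41.5% in KO against 0.699% and 0% in WT. Pooled levels of both subsets were thus close on the strands. Graded CpGs outside that subset could differ by strand in KO 2. At 79263618 KO 2 had 11 of 26 forward and 11 of 11 reverse reads methylated, at 79917820 it had 14 of 30 and 6 of 6, and at 85659256 it had 5 of 5 and 10 of 29. At each of them neither WT library had a read on the strand where KO 2 was fully methylated. These examples were chosen after their values were seen.

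A second readout, which the choice of the segment did not use, is whether a CpG was read at all. CpGs with at least 10 reads in both KO libraries that neither WT library lists numbered 751 of 3485585 listed in the series (0.0215%), and 620 of them lie in the segment, 1.4% of its 44185 listed CpGs. In every library the lowest listed depth was 1 read, so an unlisted CpG had no read in the file. The first sub-interval had 270 (7.93% of its 3405 listed CpGs), the middle one 20 (0.177% of 11268) and the last 330 (1.12% of 29512). On the rest of chromosome 15 the share was 0.0528% and on the other chromosomes 0.00225%. The reverse, read in both WT libraries and listed in neither KO library, was found for 24 CpGs of the segment, all in the first sub-interval (0.705%), and for 112 in the series (0.00321%). Their pooled levels were 55.4% and 53.5% in WT 1 and WT 2.

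Depth at these KO-only CpGs differed between the sub-intervals. In 73.4-74.9 Mb their median depth was 20 reads in KO 1 and 21 in KO 2, and the KO 2 to KO 1 ratio, scaled by library, had a median of 1.05 (quartiles 0.874 and 1.27). In 78.2-86.8 Mb it was 26 reads in KO 1 and 14 in KO 2, with a ratio of 0.551 (0.48 and 0.689), and KO 1 was the deeper at 311 of 330 (94.2%). The 20 of the middle sub-interval all lie at its end, from 77895091 to 78173422, and had a ratio of 0.603. At the analysed CpGs the same ratio was 0.95, 0.96 and 0.951 in the 3 sub-intervals, so the lower KO 2 depth was seen at the KO-only CpGs and not at the analysed ones. The minimum of 10 reads applies to both KO libraries alike and cuts off the low end of these depths. Methylation at the KO-only CpGs was alike in the KO libraries: 68.8% in both in the first sub-interval, and 65.7% and 65% in KO 1 and KO 2 in the last.

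**Figure D3:**
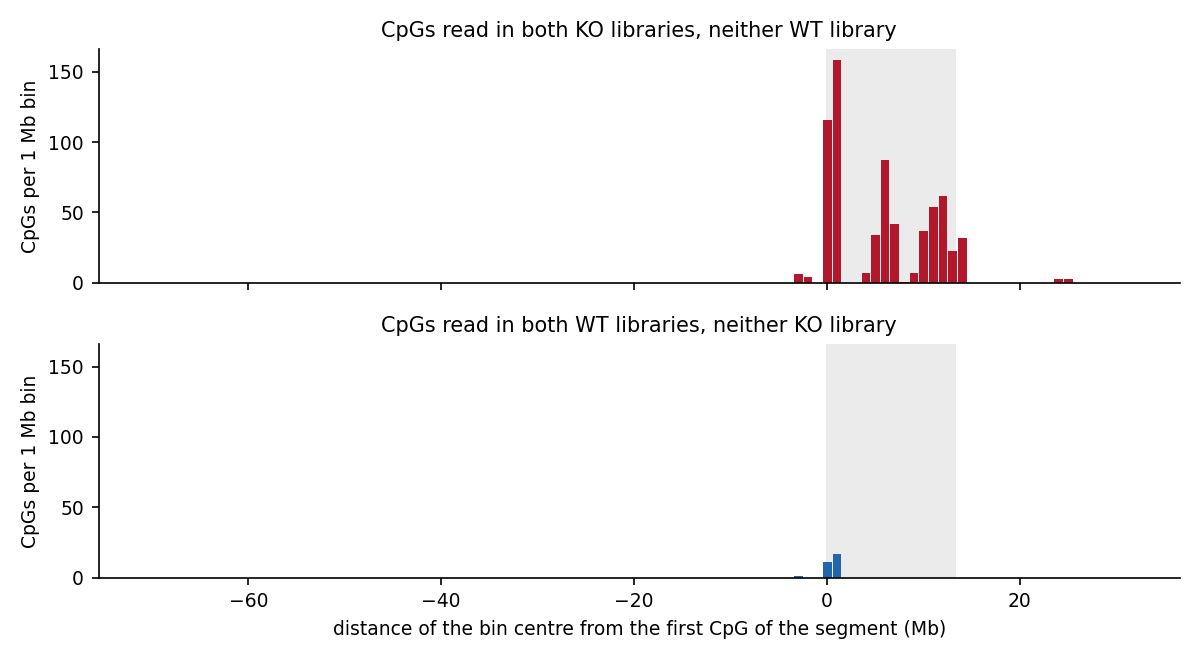
Number of CpGs per 1 Mb bin read in both KO libraries and listed in neither WT library (top), and the reverse (bottom), by distance from the first CpG of the segment (Mb), with the segment shaded. Of 676 such CpGs of KO on the chromosome 620 lie in the segment, with a gap from 74870880 to 77895091, and the 24 of WT in the segment lie in its first sub-interval.

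**Figure D4:**
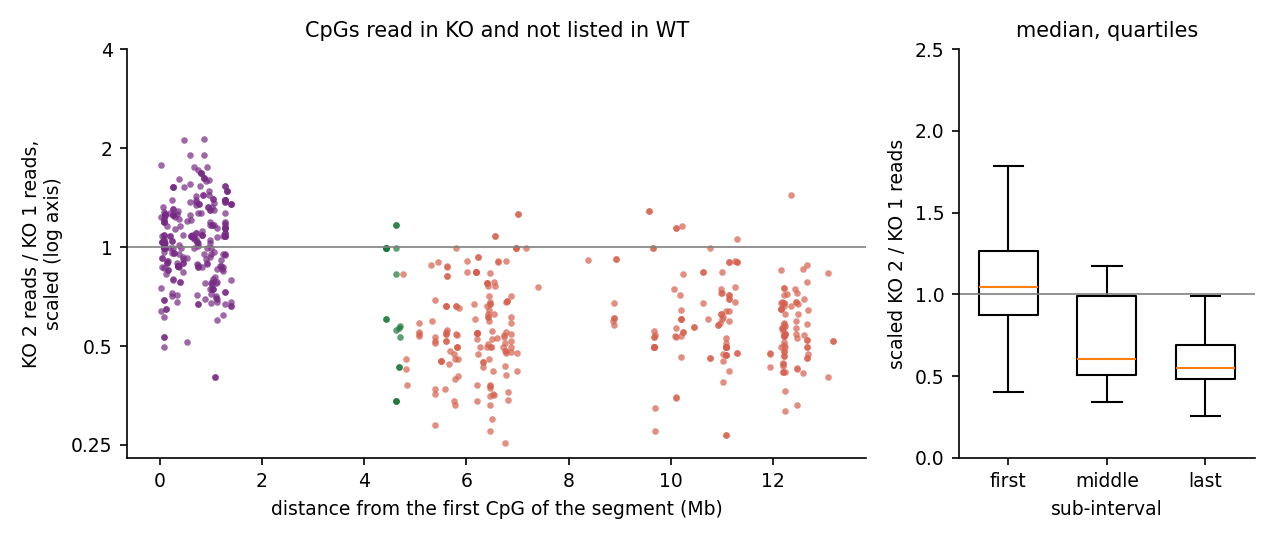
Ratio of KO 2 to KO 1 reads, scaled by library, at each KO-only CpG by distance from the first CpG of the segment (left, log axis, colours for the 3 sub-intervals), and as boxes per sub-interval (right, linear axis; median, quartiles and whiskers of 1.5 interquartile ranges). The medians are 1.05 in the first, 0.603 in the middle and 0.551 in the last sub-interval.

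By gene, 396 KO-only CpGs fall in 78 gene entries and 224 lie between genes. In the first sub-interval Dennd3 had 38 with a median ratio of 1.03, the non-coding genes Gm19859 and Gm32168 had 25 and 24, Adgrb1, an adhesion receptor gene, had 19, and Ptp4a3 had 13 with 1.26. In the last, Cbx7, Celsr1, Eif3l and Rtl6 had 13 each. Their ratios were 0.495 in Cbx7, 0.595 in Celsr1, 0.661 in the translation initiation factor gene Eif3l and 0.495 in Rtl6, a gene derived from a retrotransposon. Genes that held both KO-only CpGs and all-or-none or graded ones included Dennd3, Ptp4a3, Gm32168, Cbx7, Celsr1, Eif3l and Rtl6. KO-only CpGs came in 270 runs with gaps of at most 500 bp, and 158 runs had more than 1. The longest, in and beside Lynx1, a modulator of nicotinic receptors, held 15 CpGs between 74752521 and 74753048, with 26 and 30 median reads in KO 1 and KO 2 and levels of 3.1% and 2.7%. A run of 13 in Dennd3 between 73555078 and 73555634 was methylated, at 86.7% and 85.2% in KO. Poldip3 had 9 between 83149069 and 83149103, with 26 reads in KO 1 against 13 in KO 2, and levels of 2.15% and 0%. Tspo, of the outer mitochondrial membrane, had 6 with 41.5 and 18.5 reads in KO 1 and KO 2, and levels of 73.2% and 69.9%. Runs of both low and high methylation were thus among those read in KO only.

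The longest stretch without a KO-only CpG ran from 74870880 to 77895091, 3.02 Mb with 10246 listed CpGs, where none allows a share of up to 0.0293%. Its 6170 analysed CpGs averaged 41.1% and 40.8% in KO, against 40.9% and 40.8% in WT, and it held neither class. Beyond the segment, 14 KO-only CpGs lie before it, from 70861449 to 73468403, and 36 within 1.5 Mb after it, up to 87924368.

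The mean level of the whole segment moved little. In 73.4-74.9 Mb it was 45.3% and 45.6% in KO against 43.8% in both WT libraries, a difference of 1.65 points, and 0.711 points without the all-or-none CpGs. In 74.9-78.2 Mb it was 41.5% and 41.2% in KO against 41.4% and 41.2% in WT, and the groups overlapped. In 78.2-86.8 Mb it was 41.6% and 41.3% in KO against 41.2% and 40.9% in WT, a difference of 0.4 points, and 0.195 points with overlapping groups once the graded CpGs were left out. Weighted by reads the direction turned, to -0.395 points in 78.2-86.8 Mb and -0.264 points in the whole segment. The rest of chromosome 15 differed by 0.461 points, at 46.9% in both KO libraries against 46.5% and 46.3% in WT. With 2 libraries a genotype, an exact permutation test cannot give a p below 0.333.

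A quasi-binomial model fitted to all tiles of the series called 14 of 2255 tiles in the segment, at an adjusted p under 0.05 and at least 10 points. Over the series 0.0874% of 163610 tiles were called, 0.0666% higher and 0.0208% lower in KO, and since this contrast chose the segment nothing is read from that comparison. By sub-interval 6 of 154, 0 of 596 and 8 of 1505 tiles were called, 13 higher and 1 lower in KO. Leaving out the all-or-none CpGs left 8 calls, and leaving out both classes left 4. Of the 10 lost calls, 5 were tiles with only 2 CpGs left, which were no longer tested, and the other 5 missed the threshold. Leaving out any library left none (KO 1, KO 2, WT 1 or WT 2 in turn). In the tile at chr15:73586001-73587000 in Slc45a4 the level was 95.8% and 95.5% in KO, against 86.6% and 84.6% in WT, and the difference was 0.199 points over its CpGs other than the all-or-none one. In the Ptp4a3 tile starting at 73739001 it was 92.5% and 91.2% in KO against 54.7% and 57.1% in WT, and 1.34 points without its all-or-none CpG. In the Efcab6 tile at 84042001 it was 90.1% and 63.6% in KO against 41.8% and 45.6% in WT, and without the 3 graded CpGs 92.6% and 90.5% in KO against 83.2% and 88.8% in WT. In these tiles a few CpGs held nearly all of the difference. An exception lies 1197 bp from Mroh4, at 74638001, where the other CpGs were at 83.6% and 86% in KO and 43.1% and 48.4% in WT.

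The 4 tiles called without either class include the gene Mief1, whose product recruits the mitochondrial fission machinery. Its tile at chr15:80249001-80250000 was at 85.7% and 88.6% in KO, against 51.3% and 55.7% in WT, a mean of 87.1% ± 2.07 against 53.5% ± 3.08 (SD, n = 2 each). All 7 analysed CpGs of this tile were higher in both KO libraries than in both WT libraries, and 2 KO-only CpGs lie in it. In Bik, a pro-apoptotic BH3-only gene, the tile at chr15:83527001-83528000 was the only called tile lower in KO. It stood at 3.7% and 9.3% in KO, against 21.6% and 21.7% in WT, over 38 CpGs and 1133 to 1810 reads a library. At its CpG 83527319 the level was 0% and 17.9% in KO and 65% and 70.8% in WT, with KO 2 between KO 1 and WT. The other 2 lie 3710 bp from Ndufa6, at 62.7% and 52.2% in KO against 25% and 25.6% in WT, and 24773 bp from Lncppara, at 33% and 35.8% in KO against 19.8% and 12.4% in WT. The Lncppara tile also holds 5 KO-only CpGs. A tile in Ppara, the nuclear receptor of fatty acid oxidation, missed the threshold at 53.9% and 49.7% in KO and 29.3% and 28.3% in WT (chr15:85743001-85744000). Other tiles came similarly close in both directions, higher in KO as in Cbx7 and lower in KO as in Maff. Nothing is read from the Ppara tile alone.

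Fitted CpG by CpG over the series, the same model called 9 CpGs (0.000712% of 1263975), and these were all-or-none CpGs of the segment, from which nothing is read because that contrast chose them. With another prior for the spread 102 CpGs were called in the series, 56 of them in the segment, and with a prior without zero dispersions 472 and 95. Leaving out KO 1, KO 2, WT 1 or WT 2 left no called CpG.

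**Figure D5:**
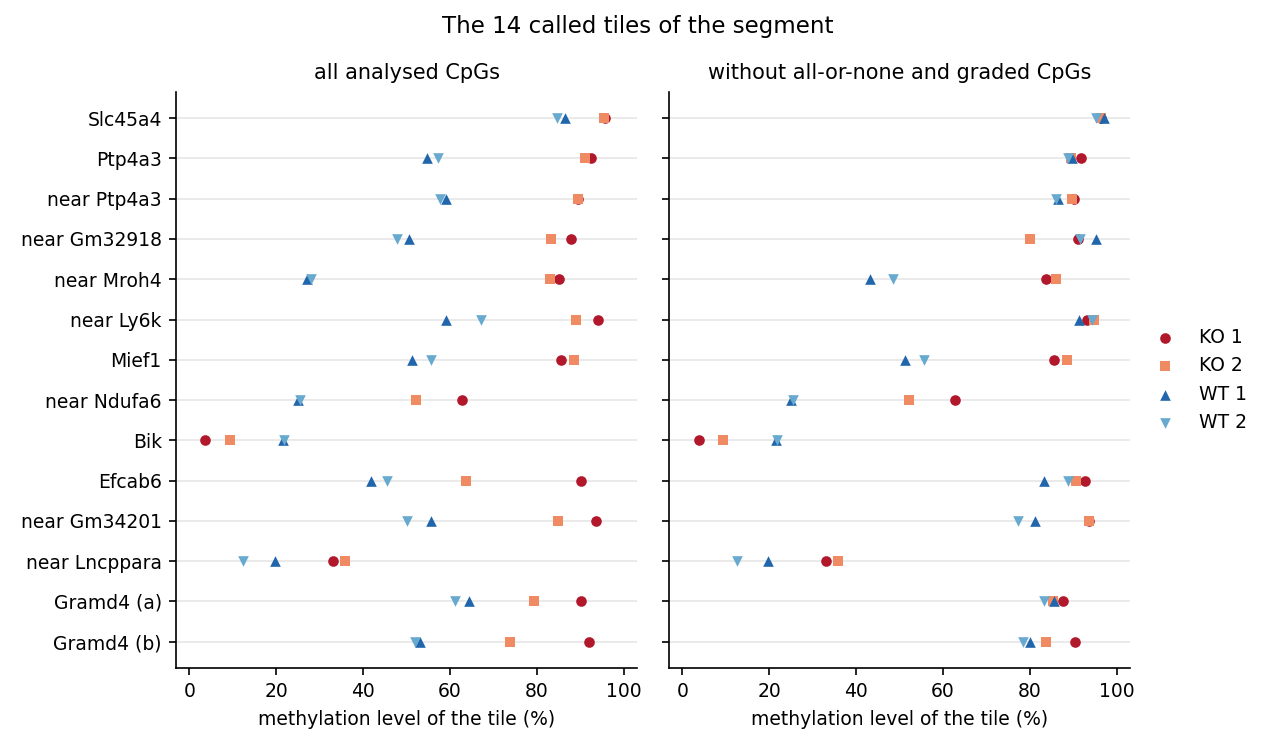
Methylation level (%) of the 14 called tiles, a row each, in KO 1, KO 2, WT 1 and WT 2 (by colour and marker), with all analysed CpGs at left and without all-or-none and graded CpGs at right. Most separations on the left shrink on the right, whereas Mief1, Bik and the tiles near Mroh4, Ndufa6 and Lncppara keep theirs.

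Genes as a whole varied in both directions. Of 298 genes with at least 10 analysed CpGs, 55 were higher and 60 lower in both KO libraries than in both WT libraries (16.2% and 17% of 19813 genes in the series), with a median difference of -0.141 points against -0.0574 over all genes. Apobec3 had the largest positive difference of the last sub-interval, 82.5% and 77% in KO against 65.5% and 68.4% in WT, 12.8 points, and 0.364 points without its graded CpGs. Rtl6 was at 60.9% and 63.8% in KO and 52.5% and 49.9% in WT, and kept 9.01 of 11.1 points. Sstr3 was at 64.5% and 63.3% in KO and 48.9% and 57.1% in WT, and kept 8.83 of 10.9. Ddx17, an RNA helicase gene, was lower in KO at 49% and 56.8%, against 67% and 60.9% in WT. Bik as a whole was at 9.32% and 14% in KO against 21.2% and 20.4% in WT. In the middle sub-interval Scx, a transcription factor gene of tendon cells, was at 33.2% and 29.3% in KO against 46.5% and 37.3% in WT. Grina was at 43.7% and 40.9% in KO against 38.6% and 34.8% in WT. In the first, Mroh5 was at 67.6% and 67.3% in KO against 62.1% and 57.5% in WT, and kept 6.36 of 7.63 points. Leaving out the graded and all-or-none CpGs thus took away nearly all of the difference at Apobec3 and little of it at Rtl6, Sstr3 and Mroh5. The difference also fell from 6.78 to 0.761 points at Gm32405 and from 3.28 to 1.49 points at Ptp4a3, both with overlapping groups. At Gm15722 it turned from 8.64 to -3.74 points, and Gm32168 kept 3.64 of 5.22 points.

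Of 23 genes listed under lipid and liver metabolism in the segment, 21 were measured, 1 higher and 4 lower without overlap, with a median of -0.144 points. Of their 142 tiles 1 was called, that of Mief1, whose product acts in mitochondrial fission. Over the series 16.2% of genes were higher and 17% lower without overlap, and 0.0874% of tiles were called. The lists are small beside these shares, and nothing is read from their counts. Ppara was at 15.8% and 16.1% in KO against 15.5% and 15.1% in WT. Srebf2, the regulator of cholesterol synthesis, was at 41.9% and 42.8% in KO against 44.3% and 44% in WT. Around their starts Ppara had 0.691% and 0.411% in KO and 0.637% and 1.06% in WT, and Srebf2 0.398% and 0.999% in KO and 0.725% and 0.642% in WT, both unmethylated throughout. Over 169 start windows the median difference was 0.0491 points, and 120 windows were below 20%. Of these windows 1 lay in the first sub-interval, 12 in the middle and 156 in the last. The lipid droplet gene Pnpla3, a relative of Pnpla7, was at 30.7% and 31.2% in KO against 37% and 32.4% in WT over its body. Of 21 measured regulators of transcription and chromatin 3 were higher and 7 lower, with a median of -0.714 points and no called tile among 165. Cbx7 was at 27.4% and 25.4% in KO against 23.3% and 22.5% in WT, 3.45 points, and 0.975 points without its graded CpGs. Of 11 blood cell genes 3 were higher and none lower: Apobec3, Cyth4 and Nfam1, each of which carries a graded CpG. Cyth4 kept 3.08 of 4.97 points and Nfam1 5.29 of 6.05 without it. The 2 measured Cyp2d genes, of drug metabolism, moved apart, with Cyp2d26 at 41.9% and 36% in KO against 35.6% and 33.4% in WT and Cyp2d22 at 41.9% and 47.2% in KO against 48.3% and 48.2% in WT. Of the Ly6 family 3 genes were measured, with differences between -0.897 and 0.338 points. Fbln1, Scube1 and Mfng, a further list, did not separate the genotypes over their bodies, with differences between -0.155 and 1.24 points. Scube1 and Mfng each hold a graded CpG.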

How the data were processed

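Per the labels' protocols, liver DNA was digested with TaqI and then MspI, and the libraries were bisulfite converted. For each library the authors deposited a track of methylation levels (a fraction, signed by strand) and a track of read depth, made with GBSA on mm10 per the file headers. BWA 0.7.12 and MACS are listed in the submitters' processing notes with no role, and other steps are not stated in the labels or headers. The product of level and depth was whole within 1e-06 at 100% of positions and was taken as the number of methylated reads. Strands were summed per CpG, and an analysed CpG needed 10 reads or more in each library. The deposited files were otherwise used in full, apart from mitochondrial CpGs.

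CpGs and tiles were tested over the whole series with a moderated quasi-binomial model (limma 3.58.1 in R 4.3.3, dispersion held at 1 or above, two-sided quasi-likelihood F test, Benjamini-Hochberg adjustment). The model was also run on simulated reads drawn without spread between libraries. Such reads cannot check the prior for the spread. Gene, start-window (1 kb on either side) and tile levels pool reads, and sub-interval levels are means over CpGs. Named genes hold an all-or-none CpG or called tile, are among the 5 largest differences without overlap in each direction per sub-interval, or have most CpGs in a list; graded and KO-only examples were chosen after their values were seen. The same replicate numbers did not pair libraries (correlation of deviations -0.0164). The members and gene lists were chosen with earlier results of these data known. The gene table gives names and positions on mm10, and sequences came from RefSeq. Sequence variants were not analysed here.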

Additional observations from a re-analysis of the deposited data

Results flagged for a closer look

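Signal outside the levels was present where only the KO libraries were read. CpGs with at least 10 reads in both KO libraries and listed in neither WT library numbered 270 in 73.4-74.9 Mb, 20 in 74.9-78.2 Mb and 330 in 78.2-86.8 Mb, against 24, 0 and 0 CpGs read in both WT libraries and listed in neither KO library. The cause was not tested.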

How the results depend on the processing

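The 15 all-or-none CpGs became 34 at a minimum of 5 reads, 7 at a minimum of 20, 9 at limits of 5% and 80%, 22 at limits of 20% and 60%, 33 with reads pooled by genotype, and 15 to 64 when a library was left out, 64 without KO 2. The graded class, chosen after seeing the data, held 49, and 15 at 20 reads. The mean difference of the segment, 0.389 points, was -0.264 weighted by reads, 1.77 over CpGs of 20% to 80% and 0.199 without both classes. In 73.4-74.9 Mb it was 2.47 at 5 reads, 0.711 without the all-or-none CpGs and 5.26 over CpGs of 20% to 80%. Weighted by reads it was -0.298 in 74.9-78.2 Mb and -0.395 in 78.2-86.8 Mb, where CpGs of 20% to 80% gave 1.93. Without a library it was 0.249 to 0.529 in the segment, 1.53 to 1.77 in the first sub-interval, -0.041 to 0.249 in the middle and 0.238 to 0.561 in the last. The 14 called tiles became 5 at 20 reads, 8 without all-or-none CpGs, 4 without both classes, 0 with limma on log2 ratios (165 tiles at an unadjusted p under 0.05) and 0 without any library (146 to 178 unadjusted). The 9 called CpGs became 0 at 5 reads (1047 unadjusted), 56 with another prior, 95 with a prior without zero dispersions and 0 without any library (18 to 83 unadjusted), so the number depends on the prior. With the replicate number as a block, 0 tiles (165 unadjusted) and 0 CpGs (61 unadjusted) were called in that model; the numbers share a label and do not pair the libraries. The 620 KO-only CpGs became 1109 at 5 reads and 187 at 20, and 644 to 959 without a library, 959 without KO 2. The 24 WT-only CpGs became 64 at 5 reads and 13 at 20, and 28 to 133 without a library, 133 without KO 2. Of 174 values of 29 named genes under the alternatives 171 kept their sign. No other cause of these shifts was tested. At 10 reads a count of 0 allows a level of up to 30%, which limits single CpGs.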

Other observations

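On chr15 between 94281194 and 101071133 (mm10), beyond the segment, 34 CpGs showed another arrangement of levels, with medians of 44.1% and 91.7% in KO 1 and KO 2 and 0% and 43.6% in WT 1 and WT 2. The series held 48 CpGs of that arrangement and the segment none. These CpGs were picked by their levels, so the medians only describe the chosen set and nothing is read from their number.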
